A study of Yarrowia lipolytica with 6 samples.

Results

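The oil yeast Yarrowia lipolytica holds 22 protein-coding transcripts that are read at moderate levels in the parent strain and at one sixteenth of that or less when the kinase gene SNF1 is missing. They were chosen from the counts themselves, out of 9235 counted features, of which 6447 are RefSeq coding transcripts. The level used is CPM, the count of a feature divided by the total of its library and multiplied by 1000000. A transcript was taken when its mean over the wild type libraries lay from 10 to 200 CPM and its mean over the deletion libraries was at least 16-fold lower, with the deleted gene left out. Of 3429 coding transcripts in that range of levels, 22 met the rule, or 0.642%. Because the levels of both strains chose them, their falls are given here as a description, with no test.

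RNA was read from 3 libraries of the snf1 deletion strain and 3 of its parent CXAU/AI, called wild type here, and the labels call them biological replicates. The deletion was made by homologous recombination, and the labels do not say how many clones of either strain were used. Both strains were grown for 48 h and then, from an optical density of 0.05, for 24 h at 30 °C in a medium with uracil, and were held for 1 h with 2% n-decane, an alkane, and 1% uracil. Triton-X was then added to free the cells from decane droplets. All 6 libraries come from cells held with decane, so the differences described here are between strains and not responses to decane. Totals ranged from 32315239 to 37094343 counts per deletion library and from 33835106 to 38054417 per wild type library. SNF1 itself had 0 counts in every deletion library and 2546 to 3644 counts in the wild type libraries.

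Snf1 is a protein kinase, known in budding yeast for switching on genes for carbon sources other than glucose. Yarrowia lipolytica uses alkanes as carbon sources: cytochrome P450 enzymes of the ALK family add oxygen to them, later enzymes turn the product into fatty acids, and peroxisomes shorten these. Yas1 is a transcription factor that, together with Yas2, activates alkane-responsive genes of this yeast.

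Of the 22 transcripts, 21 could be tied to a Gene ID of the authors' deposited table, and 3 of those carry a gene name there: the P450 genes ALK11 and ALK3, and Yas1. The other 18 tied transcripts carry no name there and are given by locus tag, and rna-XM_503997.1 by its accession. Of these, YALI0_E14729g is ABC1 on the gene lists drawn up for the comparison. CPM is not corrected for transcript length, so levels are compared between strains and libraries for 1 transcript at a time, and no order of levels between genes is given. CPM gives shares of a library, so a change in the total RNA of a cell would not be seen.

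In all 22, the highest deletion library lay below the lowest wild type library. The gap between these 2 libraries ran from 6.19-fold for YALI0_D00132g to 68.1-fold for YALI0_C01089g, with a median of 14.5-fold. The same lack of overlap, with the deletion lower, was found in 18.1% of the coding transcripts at 10 to 200 CPM in wild type. All 22 passed the low-count filter and are lower in edgeR's quasi-likelihood test at adjusted p under 0.05, as are 18.7% of all 7244 tested features. Since the rule used this contrast, nothing is read from either count. The ratio of means, deletion over wild type, ranged from -7.00 to -4.07 on the log2 scale, with a median of -4.88, against a median of 0.16 over the 3429 coding transcripts in the range.

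**Figure D1:**
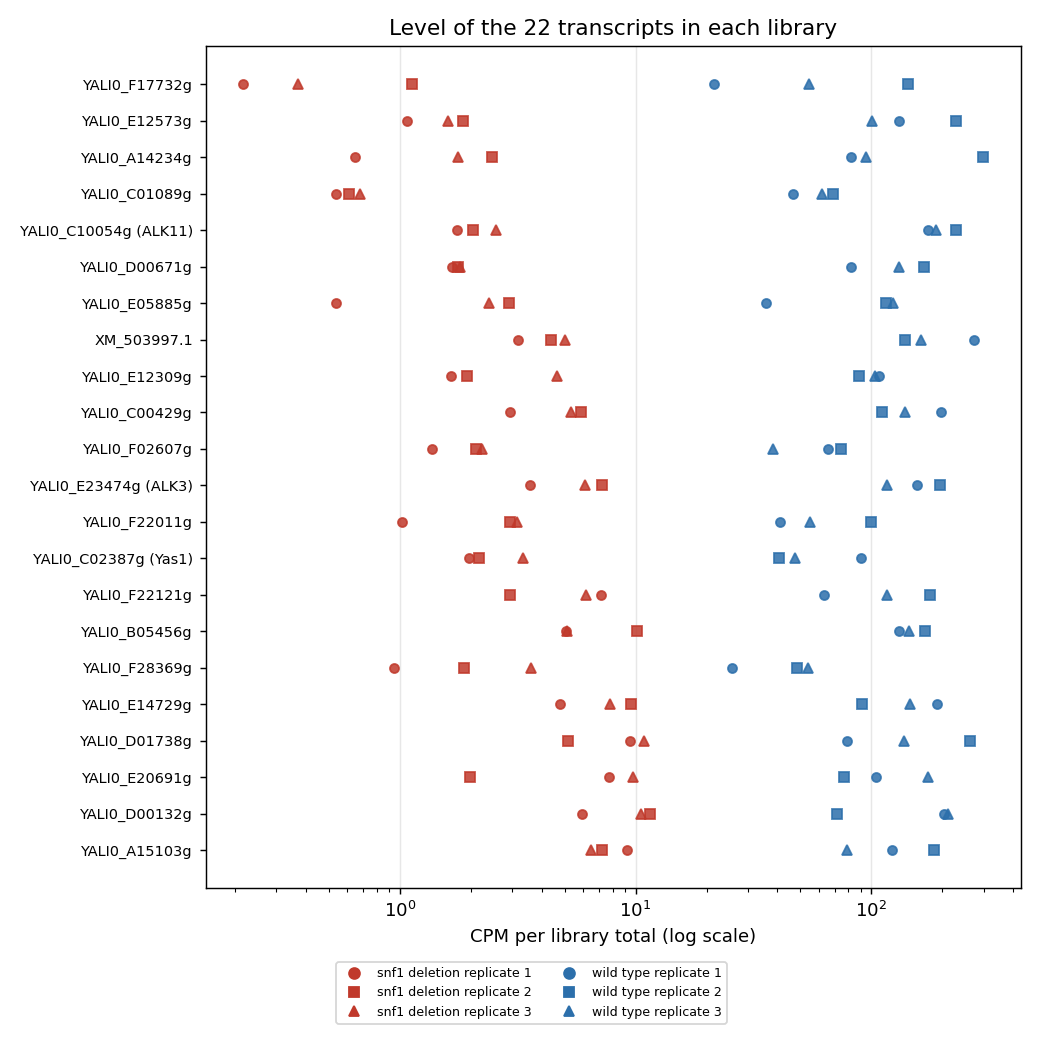
CPM per library total on a log axis for each of the 22 transcripts, one row each, ordered by the ratio of means with the deepest fall at the top. Red symbols are the 3 deletion libraries and blue symbols the 3 wild type libraries, with a symbol per replicate number; no red symbol reaches a blue one in its row.

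None of the 22 was silent in the deletion. Counts per deletion library ran from 8 to 400, against 727 to 11372 per wild type library. A floor of 3 counts per library corresponds to 0.0809 to 0.0928 CPM in the deletion libraries, and every value printed for a transcript of the set lies above it. Together the 22 held 0.00725%, 0.009% and 0.0101% of the counts of the deletion libraries, in the order of their replicate numbers, and 0.242%, 0.308% and 0.248% of those of the wild type libraries. Their summed share was 0.00879 ± 0.00145% in the deletion and 0.266 ± 0.0365% in wild type (SD, n = 3 each).

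The regulator comes first. Yas1 (YALI0_C02387g) had 1.97, 2.17 and 3.34 CPM in the deletion, against 90.2, 40.5 and 47.5 CPM in wild type. Wild type replicate 1 was the highest of the 6 libraries, about double the other wild type values. The mean was 2.49 ± 0.742 CPM in the deletion and 59.4 ± 26.9 CPM in wild type, 23.8-fold lower, with a log2 ratio of -4.58. In the authors' deposited table, the log2 fold change of Yas1 is -4.77 (SE 0.39). The tie of this row to Yas1 was the loosest of the 21 tied.

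ALK11 (YALI0_C10054g), one of the cytochrome P450 genes, had 1.75, 2.05 and 2.57 CPM in the deletion, against 173, 229.6 and 187 CPM in wild type. Its libraries lay close together within both strains, and 92.6-fold apart between the means. At 197 ± 29.3 CPM in wild type it stood just inside the upper limit of the rule. ALK3 (YALI0_E23474g), of the same family, had 3.59, 7.23 and 6.13 CPM in the deletion, against 157, 196 and 116 CPM in wild type. Its means were 5.65 ± 1.87 CPM in the deletion and 157 ± 40 CPM in wild type, 27.7-fold lower. For both genes wild type replicate 2 was the highest and deletion replicate 1 the lowest library. How the authors counted reads that match several members of a gene family is not given in the sources used here.

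YALI0_E14729g stands as ABC1, the transporter, on the list of regulators and transporter of alkane use that was drawn up for the comparison. It had 4.77, 9.54 and 7.8 CPM in the deletion, against 191, 90.9 and 146 CPM in wild type. As for Yas1, wild type replicate 1 was the highest library and wild type replicate 2 the lowest of its strain. The means were 7.37 ± 2.41 CPM in the deletion and 143 ± 50.0 CPM in wild type, a log2 ratio of -4.27.

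Beside these 4, no tied transcript of the set is on a list for alkane or fatty acid use. The lists were drawn up by locus tag, with earlier results of these data known. Of 12 ALK tags, 2 are in the set, 4 fell at least 16-fold from wild type means above 200 CPM, 2 stood above 200 CPM with a smaller fall, 3 are not in the authors' deposited table and 1 could not be tied to a count row. Of 4 tags for regulators and the transporter, 2 are in the set and 2 could not be tied. None of the 14 tags for beta-oxidation and fatty acid activation was tied to a transcript of the set: 10 stood above 200 CPM with a fall of at least 16-fold, 2 stood above 200 CPM with a smaller one, and 2 could not be tied. None of 13 tags for the oxidation of fatty alcohols and aldehydes was tied to one either: 7 stood above 200 CPM and were at least 16-fold lower, 1 stood above 200 CPM with a smaller fall, 2 stood at 10 to 200 CPM, 2 are not in the authors' deposited table and 1 could not be tied. The tag that could not be tied, YALI0_E15818g, has a log2 fold change of -6.16 in the authors' deposited table and an assembly number in the window of rna-XM_503997.1. Whether that transcript is YALI0_E15818g is not settled, since the deposited gene nearest to it in values was another one, outside that window. For the 2 tags of that list at 10 to 200 CPM in wild type, the mean was higher in the deletion in both, with log2 ratios of 1.39 for YALI0_F09603g and 1.23 for YALI0_D02167g. None of 7 tags for the glyoxylate cycle and gluconeogenesis is in the set, with 2 above 200 CPM and at least 16-fold lower and 5 above 200 CPM with a smaller fall. Of 12 peroxisome biogenesis tags, none was tied to a transcript of the set, 1 fell at least 16-fold from above 200 CPM, 6 fell less from above 200 CPM, 4 could not be tied and 1 is not in the authors' deposited table.

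The other 18 transcripts have no gene name or product in the files, and are given in order of their ratio. YALI0_F17732g had 0.216, 1.13 and 0.371 CPM in the deletion, against 21.5, 143 and 54.6 CPM in wild type. Its mean was 128-fold lower, with 8, 39 and 12 counts behind the deletion values. This transcript had the widest spread of the set among wild type libraries, 6.66-fold between the lowest and the highest. Its log2 ratio of -7.00 was -6.06 without wild type replicate 2 and -7.96 without deletion replicate 2.

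YALI0_E12573g had 1.08, 1.85 and 1.61 CPM in the deletion, against 131, 229 and 101 CPM in wild type. YALI0_A14234g had 0.647, 2.46 and 1.76 CPM in the deletion, against 82.1, 299 and 95.3 CPM in wild type. In both, wild type replicate 2 stood apart above the others, and the means were 102-fold and 97.8-fold lower. The log2 ratio of YALI0_A14234g, -6.61, was -5.77 without wild type replicate 2. YALI0_C01089g, in contrast, was even within each strain, at 0.539, 0.607 and 0.681 CPM in the deletion and 46.3, 68.8 and 61.7 CPM in wild type. Its means of 0.609 ± 0.0708 CPM in the deletion and 59.0 ± 11.5 CPM in wild type differ 96.8-fold.

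YALI0_D00671g had 1.67, 1.76 and 1.79 CPM in the deletion, against 82.0, 168 and 131 CPM in wild type. Its deletion libraries differed by only 1.07-fold from lowest to highest, the narrowest spread of the set, and its mean was 72.9-fold lower. YALI0_E05885g had 0.539, 2.92 and 2.38 CPM in the deletion, against 35.8, 115 and 124 CPM in wild type. For this one, replicate 1 was far below the others in both strains. The row rna-XM_503997.1 had 3.18, 4.39 and 5.01 CPM in the deletion, against 273, 139 and 162 CPM in wild type, 45.6-fold lower in the mean. No deposited gene was matched to it.

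A middle group lay between 20-fold and 40-fold lower. YALI0_E12309g had 1.64, 1.94 and 4.64 CPM in the deletion, against 108, 88.4 and 104 CPM in wild type. Its wild type values were the most even of the set, 1.22-fold between the extremes, while deletion replicate 3 stood above the others; without it the log2 ratio of -5.19 was -5.80. YALI0_C00429g had 2.94, 5.90 and 5.32 CPM in the deletion, against 197, 111 and 139.6 CPM in wild type. YALI0_F02607g had 1.37, 2.1 and 2.23 CPM in the deletion, against 65.4, 74.0 and 38.3 CPM in wild type. These 2 were 31.6-fold and 31.1-fold lower. YALI0_F22011g had 1.02, 2.95 and 3.16 CPM in the deletion, against 41.0, 99.7 and 54.7 CPM in wild type. YALI0_F22121g had 7.17, 2.95 and 6.19 CPM in the deletion, against 63.0, 177 and 117 CPM in wild type. In deletion replicate 2 both stood at 2.95 CPM, and wild type replicate 2 was their highest library. YALI0_B05456g had 5.07, 10.2 and 5.11 CPM in the deletion, against 131, 168 and 144 CPM in wild type, with deletion replicate 2 double the other deletion libraries.

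The last 5 were under 20-fold lower. YALI0_F28369g had 0.944, 1.88 and 3.62 CPM in the deletion, against 25.7, 48.3 and 53.9 CPM in wild type. At 42.7 ± 14.9 CPM it had the lowest wild type mean of the set, and its log2 ratio of -4.31 was -4.92 without deletion replicate 3. YALI0_D01738g had 9.44, 5.17 and 10.9 CPM in the deletion, against 78.8, 262 and 137 CPM in wild type. YALI0_E20691g had 7.71, 1.99 and 9.72 CPM in the deletion, against 104, 76.8 and 174 CPM in wild type. In these 2, deletion replicate 2 was the lowest library, while among wild type libraries replicate 2 was the highest for YALI0_D01738g and the lowest for YALI0_E20691g. YALI0_D00132g had 5.96, 11.6 and 10.6 CPM in the deletion, against 204, 71.6 and 212 CPM in wild type. YALI0_A15103g had 9.25, 7.23 and 6.50 CPM in the deletion, against 122, 184 and 78.8 CPM in wild type. It was the only one of the 22 with its lowest deletion value in replicate 3.

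The threshold on the ratio cut through a continuous range. Just inside it were YALI0_E20691g, YALI0_D00132g and YALI0_A15103g, 18.3-fold, 17.4-fold and 16.8-fold lower. Just outside were YALI0_D17314g, YALI0_A16445g and YALI0_F02959g, 15.9-fold, 15.7-fold and 15.2-fold lower. YALI0_D17314g stood at 0.431, 1.76 and 1.27 CPM in the deletion and at 8.98, 38.7 and 7.45 CPM in wild type, so wild type replicate 2 carried most of its mean. At the upper limit of the level, the 3 nearest transcripts inside were ALK11, rna-XM_503997.1 and YALI0_D00132g. The nearest outside with a fall of the same size were YALI0_B21824g, YALI0_D01001g and YALI0_A00154g, with wild type means of 249, 249 and 259 CPM. At the lower limit the nearest inside were YALI0_F28369g, YALI0_C01089g and YALI0_F02607g, with wild type means of 42.7, 59.0 and 59.3 CPM, and the nearest outside was YALI0_C10076g at 2.55 ± 0.672 CPM in wild type.

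The set did not fill the range of levels allowed by its rule. The lowest wild type mean of the set was 42.7 CPM, with 1740 coding transcripts between 10 CPM and that value. Since this cut was taken from the set itself, that none of the 1740 was at least 16-fold lower follows from it. Of the 1689 from 42.7 to 200 CPM, 1.30% were at least 16-fold lower in the mean. In fixed steps of level, the share was 0 of 720 at 10 to 20 CPM and 0 of 928 at 20 to 40 CPM. It was 6 of 926 at 40 to 80 CPM and 4 of 437 at 80 to 120 CPM. At 120 to 200 CPM it was 12 of 418, or 2.87%. Above the limit it was 23 of 479 at 200 to 500 CPM, 13 of 182 at 500 to 1000 CPM and 42 of 153, or 27.5%, above 1000 CPM. The share of strongly lowered transcripts was thus higher in each step of wild type level from 20 CPM upwards. The median log2 ratio of all coding transcripts shifted too, from 0.51 at 10 to 20 CPM to -0.24 at 120 to 200 CPM and -1.53 above 1000 CPM. The wild type mean is also the denominator of the ratio, so level and ratio are not independent. The deepest fall between 10 and 20 CPM was -3.99 on the log2 scale, that of YALI0_D17314g.

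**Figure D2:**
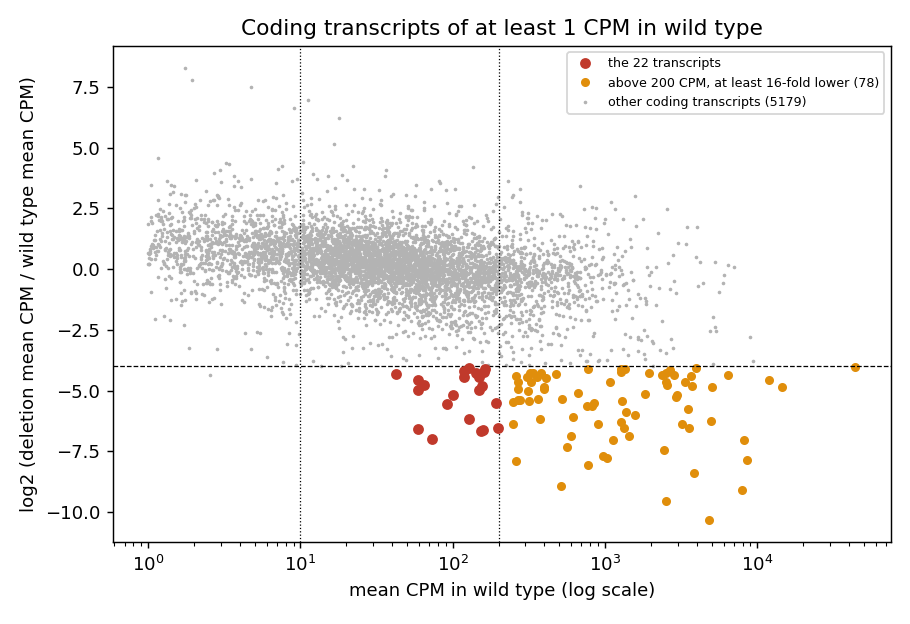
Mean CPM in wild type on a log axis against the log2 ratio of deletion to wild type means, for coding transcripts of at least 1 CPM in wild type. Red points are the 22 transcripts, orange points the 78 with the same fall from above 200 CPM, grey points all others; the dashed line marks a 16-fold fall and the dotted lines 10 and 200 CPM, and the red points begin at 42.7 CPM.

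The means of the rule are made of the same library values, so a high wild type library or a low deletion library helps a transcript to meet it, and the spread among libraries is given as a description that is not independent of the rule. Without wild type replicate 2, 18 of the 22 met the rule, as did 18 without wild type replicate 3 and 20 without wild type replicate 1. Without replicate 2, YALI0_A15103g and YALI0_D01738g missed the ratio, at log2 ratios of -3.71 and -3.67. YALI0_D00132g and rna-XM_503997.1 had replicate 2 as their lowest wild type library. Without it they still met the ratio, at -4.47 and -5.70, but their wild type means lay above 200 CPM. Among the wild type libraries, replicate 2 was the highest for 13 of the 22, replicate 1 for 5 and replicate 3 for 4. Of the 3407 other coding transcripts at 10 to 200 CPM, replicate 2 was the highest for 21.0%. In 7 of the 13, replicate 2 was over 1.5 times the next library. The 5 with replicate 1 highest were Yas1, YALI0_E14729g, YALI0_C00429g, YALI0_E12309g and rna-XM_503997.1, and in 2 of them replicate 1 was over 1.5 times the next library. The 78 coding transcripts with the same fall from above 200 CPM leaned the same way, with replicate 2 highest in 44, or 56.4%. After TMM scaling, which sets the bulk of features level between libraries, replicate 2 was the highest for 15 of the 22 and for 33.2% of the others.

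Within the deletion, replicate 1 was the lowest library for 18 of the 22, replicate 2 for 3 and replicate 3 for 1. Among other coding transcripts at 10 to 200 CPM in wild type, deletion replicate 1 was the lowest for 39.9%. Among 1020 other coding transcripts whose deletion means lay in the range of the 22, it was the lowest for 50.5%, and among the 78 with the same fall from above 200 CPM it was the lowest for 49, or 62.8%. After TMM scaling the count was 14 of 22, against 55.1% of the 78, 43.2% of the 1020 and 30.8% of the other coding transcripts at 10 to 200 CPM. The median of the 22 stood at 71.7% of the group mean in deletion replicate 1, 108% in replicate 2 and 113% in replicate 3. With 3 libraries per strain these leanings are descriptions of the libraries, and what sets them was not tested.

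**Figure D3:**
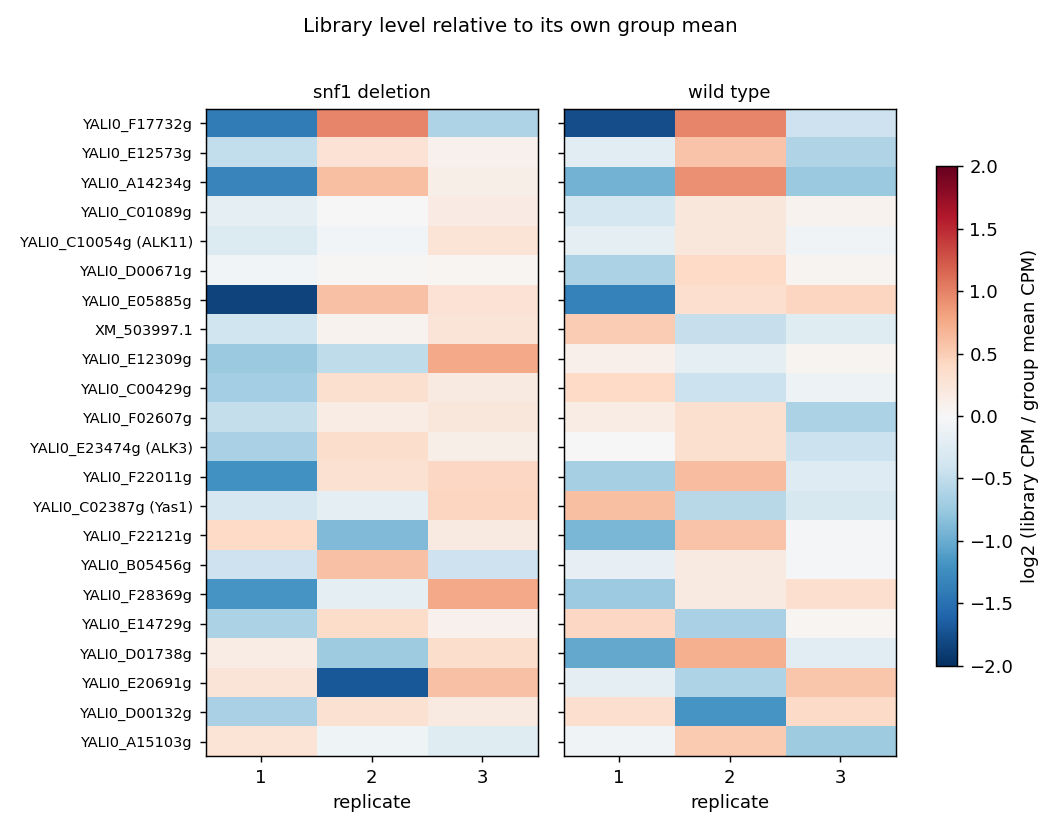
Each library's CPM relative to the mean of its own strain, as log2, for the 22 transcripts in rows and the replicates in columns, with the deletion on the left and wild type on the right. Red is above the group mean and blue below; deletion replicate 1 is the lowest of its strain in 18 rows and wild type replicate 2 the highest of its strain in 13.

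The spread of the 22 among wild type libraries was wide, with a median coefficient of variation of 39.3% (range 10.1 to 86.1%), against 28.3% for the other coding transcripts at 10 to 200 CPM and 27.7% for the 78 above that range. In 14 of the 22 the highest wild type library was more than 2 times the lowest. The median coefficient of variation in the deletion was 33.2%, against 31.0% for the 1020 other coding transcripts at like deletion levels. After TMM scaling the wild type medians were 38.9% for the 22, 26.2% for the others at 10 to 200 CPM and 34.1% for the 78. In the deletion they were then 28.7% for the 22 and 30.4% for the 1020, so the order in the deletion depends on the scaling. In wild type the median of the 22 was above those of both other sets under either scaling, and nearer to that of the 78 after TMM scaling.

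The rule was also applied to 2 libraries per strain, and the pair of libraries left out was then read. Without the libraries numbered 1, the rule gave 20 transcripts, of which 14 were at least 16-fold lower in the left-out pair, as were 30 of the 3356 coding transcripts, or 0.894%, at 10 to 200 CPM in the other wild type libraries. Without those numbered 2 it gave 26, of which 19 were, against 27 of 3490, or 0.774%. Without those numbered 3 it gave 23, of which 15 were, against 22 of 3377, or 0.651%. The left-out pairs had median log2 ratios of -5.51, -5.11 and -4.23, and the weakest single value was -1.31. Lower in the deletion library of the left-out pair were 50.3%, 33.1% and 44.8% of the coding transcripts in that range, in the same order. The libraries share only a number, so a left-out pair is 1 library of each strain and was not taken as a matched culture. The rule was set with earlier results of all 6 libraries known, and the background counts include the chosen transcripts. These shares are therefore a description and no test of the falls.

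The rows of the count files follow the numbering of the assembled loci, which gives each transcript its neighbours in that order. The 22 lay on all 6 chromosomes, with 2 on A, 1 on B, 4 on C, 3 on D, 7 on E and 5 on F. Chromosome E holds 31.8% of the set and 22.2% of all coding rows. In this order of rows, no transcript of the set had another one within 5 coding rows on the same chromosome. The order is not always that of the locus tags: YALI0_F21945g stands 2 coding rows after YALI0_F22011g. By their tags, YALI0_F22011g and YALI0_F22121g may lie closer together than their rows do. Neighbours here are thus neighbours in the numbering, which need not be adjacent genes.

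Directly beside the 22 in the numbering there were 40 coding rows of at least 1 CPM in wild type. Of these, 8 were at least 4-fold lower in the deletion, or 20%, and 4 at least 16-fold, or 10%. Over all 5279 coding rows of at least 1 CPM, 6.42% were at least 4-fold and 1.91% at least 16-fold lower. Beside the 78 abundant transcripts with the same fall, 21 of 133 coding rows were at least 4-fold lower, or 15.8%. The median log2 ratio of the 40 was 0.23, close to the 0.20 of all coding rows, so most neighbours did not share the fall.

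Of the 8 lowered neighbours, 7 follow their transcript in the numbering and 1 precedes it. YALI0_E05907g, the row after YALI0_E05885g, had 32.9, 69.4 and 87.5 CPM in the deletion, against 5146, 10626 and 8780.4 CPM in wild type. Like YALI0_E05885g, it was lowest in replicate 1 of both strains. YALI0_E12595g, after YALI0_E12573g, had 5.31, 11.1 and 5.76 CPM in the deletion, against 254, 445 and 247 CPM in wild type. Both of that pair were highest in wild type replicate 2 and in deletion replicate 2. The row rna-XM_503998.1, after rna-XM_503997.1, had 11.6, 16.1 and 23.4 CPM in the deletion, against 412, 419 and 244 CPM in wild type. YALI0_E12331g, after YALI0_E12309g, had 12.6, 11 and 8.85 CPM in the deletion, against 119.9, 126 and 112 CPM in wild type. Its wild type libraries were as even as those of its neighbour. Whether reads of 1 row spill into the next was not tested.

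The neighbourhood of ALK11 had a run of 3 lowered rows. MSTRG.2429.1, a transcript that StringTie assembled and that follows ALK11 directly, had 0.0539, 0.173 and 0.371 CPM in the deletion, against 26.0, 36.8 and 48.4 CPM in wild type. These are 2, 6 and 12 counts in the deletion and 880, 1402 and 1774 counts in wild type, so deletion replicate 1 is under the floor of 3 counts and no ratio is given. Wild type replicate 3 was its highest library, while replicate 2 was that of ALK11. YALI0_C10076g, the next coding row, had only 2, 8 and 3 counts in the deletion, against 110, 95 and 70 counts in wild type. In all, 8 of the 22 had an assembled transcript directly beside them. Besides MSTRG.2429.1, MSTRG.514.1 beside YALI0_A14234g had a mean at least 4-fold lower, from 10, 2 and 6 counts in the deletion and 30, 60 and 50 counts in wild type. Both have a deletion library at 2 counts, under the floor. Of all 1057 assembled rows of at least 1 CPM in wild type, 5.01% had such a fall. The 8 were not held to that level, since MSTRG.4942.1 had a wild type mean of 0.561 CPM, so nothing is read from the comparison. The others ranged from -1.65 to 1.90 on the log2 scale, the highest being MSTRG.4942.1. MSTRG.4632.1, directly before YALI0_E05885g, had 20.1, 60.9 and 45.6 CPM in the deletion, against 13.3, 8.80 and 19.1 CPM in wild type, so its means differed in the other direction. Whether strand was used in counting is not stated, and reads of an overlapping or antisense transcript cannot be told apart from those of the row itself.

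**Figure D4:**
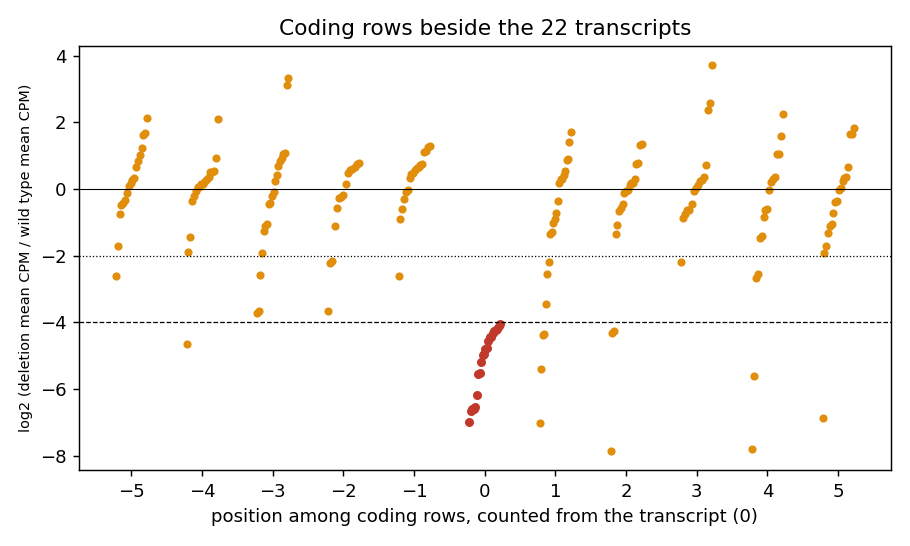
Log2 ratio of deletion to wild type means for the 22 transcripts (red, position 0) and for coding rows up to 5 places before and after them in the numbering (orange, at least 1 CPM in wild type), spread sideways at each position by value. The dotted line marks a 4-fold and the dashed line a 16-fold fall; most neighbours lie around 0, and 8 of the 40 adjacent rows lie below the dotted line.

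In the authors' deposited table, which compares the same libraries and so is no independent evidence, the 21 tied genes have log2 fold changes from -6.77 for YALI0_E12573g to -4.26 for YALI0_E20691g. For YALI0_F17732g the authors' deposited table has -5.98 (SE 0.88), against -7.00 from the means of CPM here. For ALK11 the authors' deposited table has -6.72 (SE 0.35), against -6.53 here. The ties used these fold changes, so their likeness is no result. A DESeq2 fold change and a plain ratio of CPM means differ in scaling and fitting, so a gap between them is not read either. TMM scaling moved the median log2 ratio of coding transcripts of at least 1 CPM by -0.36, and with it the ratios of the 22 ranged from -7.50 to -4.45.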

How the data were processed

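The authors deposited whole-number counts per transcript feature for each of 6 libraries, and a DESeq2 table of 2840 genes. Per the submitters' processing notes, the tools included HISAT2 2.2.1 and DESeq2 2.11.40.7, with Trimmomatic 0.38.0 for trimming and StringTie for assembly. The library kit keeps strand, per the labels' protocols. For the build, counting options and strand setting: not given in the sources used here. Per the file headers, the deposited table holds mean normalised counts (a signal over libraries), log2 fold changes, their standard errors, Wald statistics and p-values. The authors' DESeq2 fold change and Wald columns, as deposited, count as a score here, since 1 line without a gene holds a value outside any log2 range; it was left out. The table's lines all have an adjusted p under 0.05.

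CPM is the count over the library total. The whole table was fitted with edgeR 4.0.16 (quasi-likelihood test, TMM, filterByExpr at its minimum count, 10, and minimum total, 15, Benjamini-Hochberg) in R 4.3.3. The fit was tested on simulated data, with the same setting of spread for every feature and rises and falls drawn alike. That simulation cannot speak to the choice of scaling. The rule, the gene lists and the rule for named genes were chosen with earlier results of these data known. That rule took transcripts tied to a named or listed gene, the 8 deepest falls, the 5 highest wild type means and the 3 nearest to each limit on either side. Values of the remaining transcripts and of neighbouring rows were added after they were seen.

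Count rows carry accessions and table genes carry Gene IDs. A row was tied to the gene nearest in mean, fold change and standard error (DESeq2 1.42.0 with a fold-change prior) when the match was mutual, within a summed distance of 0.5, and the gene's assembly number lay between those of the numbered rows around it. Before the numbers were asked for, 1239 of 1629 matches, or 76.1%, lay between the right numbers, and 110 of 112 at log2 fold changes of -4 or lower, so ties of weaker changes are less sure; only matches between the right numbers were kept, and the windows of the 22 hold only 1 to 7 genes. The loosest tie among the 22 was that of Yas1, at a summed distance of 0.36, with the second nearest gene at 0.43. This join was designed with the data in view. No promoter, protein or genome sequence was used, so the planned search for promoter motifs was not run. Where nothing says that cultures were grown apart, replicate spread may be partly technical. Alternatives are given at the end.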

Additional observations from a re-analysis of the deposited data

How the results depend on the processing

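The number of transcripts that meet the rule was 22. It was 30 after TMM scaling, of which 20 are among the 22, and ALK11 and rna-XM_503997.1 then lay above the upper limit. It was 49 at a limit of 1/8 and 9 at 1/32, with median log2 ratios of -3.92 and -6.53, against -4.88. With medians over libraries it was 25, of which 19 are among the 22. Leaving out 1 library gave 20 to 26 transcripts and medians of -4.93 to -4.73. Over the 22 and 7 alternatives each, all 154 log2 ratios stayed negative, from -7.96 to -3.67, and 152 moved by less than the spread between libraries. In all 22 the highest deletion library lay below the lowest wild type library, so leaving out 1 library could not change the sign. Nothing is therefore read from the sign. Leaving out 1 library moved YALI0_F17732g, YALI0_A14234g, YALI0_E12309g and YALI0_F28369g by over 1.5-fold.

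Of all tested features, 1356 were lower and 1329 higher. With library size only these were 936 and 1946, and with upper-quartile scaling 966 and 2005, so the split depends on the scaling. Leaving out 1 library gave 951 to 1366 lower and 873 to 1351 higher, the lowest without deletion replicate 3. The DESeq2 test gave 1494 and 1493, limma-voom 1347 and 1309. With the replicate number as a block, 1342 were lower and 1412 higher. Deviations of same-numbered libraries correlated at 0.05, 0.15 and 0.14, and those of differently numbered libraries at -0.16 to 0.08. The numbers were not taken as pairs, and whether same-numbered libraries belong together was not tested. The deletion values of the deepest falls rest on few counts, from 8 per library, and intervals or floors from counts cover counting error only.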
